A study of Mus musculus with 6 samples.

Results

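Peritubular myoid cells are the flat contractile cells that wrap each seminiferous tubule of the testis. The genes described here are 10 contractile genes of these cells, taken by symbol from a table of 50763 gene symbols: Acta2, Myh11, Tagln, Cnn1, Des, Tpm1, Tpm2, Mylk, Actg2 and Smtn. All 10 were found. They were measured in whole testes of mice at postnatal day 14, by sequencing of polyadenylated RNA. There were 3 libraries labelled wild type (WT) and 3 labelled sKO, in which, per the series title, Rif1 was conditionally knocked out in germ cells before meiosis. Which Cre line drove the deletion, which exons it removed and the mouse strain are not given. The title thus places the knockout in germ cells, while the genes described here are known from somatic cells. Whether those cells kept Rif1, and which cells of the testis gave these transcripts, was not measured.

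Myoid cells contract as smooth muscle does. Calcium bound to calmodulin activates myosin light chain kinase, the phosphorylated light chain lets smooth muscle myosin pull on actin filaments, and the resulting peristalsis moves fluid and immobile sperm along the tubule. In the postnatal testis the cells differentiate under Desert hedgehog from Sertoli cells and under androgen, and they lay down part of the tubule's basement membrane. Smooth muscle of blood vessels, and of the epididymal duct where tissue next to the testis is included, uses the same proteins, so a whole-testis count of these transcripts is not specific to the tubule wall. In bulk RNA, fewer cells of a type and less RNA per cell cannot be told apart.

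Many smooth muscle genes are switched on through the CArG box, the site bound by serum response factor with its coactivator myocardin. RefSeq promoters (build GRCm38.p6) were at hand for 7 of the 10 genes and were searched over the 250 bases before the start, on both strands. Those of Tagln, Myh11 and Actg2 were not at hand and were not searched. No exact CArG box was found in these 7 windows, against 1.47% of 32851 promoters. With 1 G or C allowed within the 6-base core, the Acta2 promoter alone among these 7 held matches, 2 of them, and 8.59% of all promoters held at least 1. The stretch is shown because Acta2 was the most abundant of the 10 genes. It lies at chr19:34255383-34255472 on the minus strand, and capitals mark the 2 matches, which begin 84 and 34 bases before the start.
Acta2: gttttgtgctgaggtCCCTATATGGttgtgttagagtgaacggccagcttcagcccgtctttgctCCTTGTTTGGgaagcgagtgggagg
A match is a description of the letters, not evidence of binding, and nothing follows from the windows without one.

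Library totals were 15941672 to 18296594 counts. The targeted gene, Rif1, stood at 96.5, 83.7 and 129 CPM (counts scaled to library size, with TMM factors) in WT libraries 1 to 3 and at 42.0, 46.4 and 49.2 CPM in sKO libraries 1 to 3. Spermatocyte genes, which mark germ cells in meiosis, differed between the groups. Of 9 such genes, 4 were called lower in sKO (Spo11, Ybx2, Acr and Tekt1, edgeR adjusted p under 0.05), all 4 of which lost the call in some alternative fits, and the summed level of the 9 was 1154 to 2170 CPM in WT and 536 to 991 CPM in sKO. Libraries also differed within groups. sKO library 1 held epididymal transcripts, with a summed level over 16 epididymis markers of 179 CPM against 9.79 to 31.9 CPM in the other 5 libraries. Its Crisp1 level, for an epididymal secretory protein, was 89.7 CPM. WT library 1 had the highest spermatocyte sum, and among sKO libraries the highest sum was in library 3. Whether each library is 1 animal or a pool is not stated, and the p-values below reflect only library-to-library spread, part of which may be technical.

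All 10 contractile genes had higher estimates in sKO than in WT, with a median log2 fold change of 0.29 against 0.03 over all 18860 genes tested. None of the 10 passed the test, and WT and sKO libraries overlapped for every one. The number called by edgeR was 0 of 10, where 0.0318% of all tested genes were called higher in sKO and 1.27% lower. At an unadjusted p under 0.05 the number was also 0 of 10, against 5.06% of all genes on the higher side. DESeq2, which called 721 genes lower and 56 higher, also called 0 of the 10. limma-voom called no gene of the whole table, so its 0 of 10 carries no information on these genes. For 9.58% of tested genes every sKO library lay above every WT library, and 0 of the 10 were among them. A higher estimate by itself was common, at 55.3% of tested genes. All 10 passed the filter on low counts, though Tagln only narrowly, as described below.

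**Figure D1:**
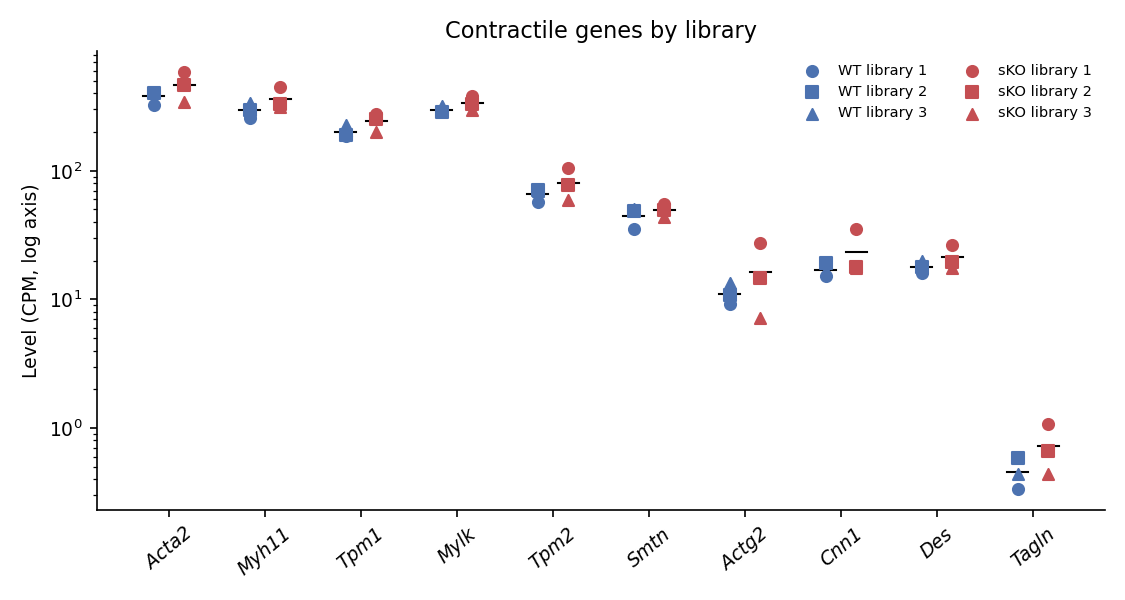
Level of each contractile gene in CPM (log axis) in the 3 WT and 3 sKO libraries, with group means as black lines and genes ordered by their WT level per kilobase of exon. Circles (library 1) are highest in sKO for every gene, while the sKO triangles (library 3) lie among or near the WT points, except for Actg2. There sKO library 3 lies below every WT point, at 7.20 CPM.

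The motor proteins are described first. Acta2 encodes smooth muscle alpha actin, the thin filament protein most often used to stain myoid cells. Its level was 326, 405 and 411 CPM in WT libraries 1 to 3 and 589.9, 467 and 343 CPM in sKO libraries 1 to 3. sKO libraries 1 and 2 thus lay above all WT libraries, and sKO library 3 lay between WT libraries 1 and 2. The log2 fold change was 0.29 (SE 0.18, 95% interval -0.10 to 0.69, edgeR adjusted p = 0.517).

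Myh11 encodes the smooth muscle myosin heavy chain. It stood at 256, 297 and 336 CPM in WT and at 449, 329 and 311 CPM in sKO. Only sKO library 1 exceeded the highest WT library. Its log2 fold change was also 0.29 (SE 0.15, 95% interval -0.04 to 0.62, edgeR adjusted p = 0.434). Mylk, the kinase that phosphorylates the myosin light chain, was the steadiest of the 10 among WT libraries, though not among sKO libraries, where Smtn varied less. Mylk stood at 289, 289 and 320 CPM in WT and at 379, 329.6 and 297 CPM in sKO. The log2 fold change of Mylk was 0.16 (SE 0.11, edgeR adjusted p = 0.540), and its interval from -0.07 to 0.40 was the narrowest of the 10. Mylk counts pool a long and a short kinase and telokin, which share the gene.

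Actg2, the smooth muscle gamma actin of gut and other visceral muscle, was the most variable of the 10 among sKO libraries, though not among WT libraries, where Tagln varied more. It stood at 9.20, 10.7 and 13.3 CPM in WT, and at 27.5, 14.7 and 7.20 CPM in sKO. The sKO libraries therefore included both the highest and the lowest value of the 6. The coefficient of variation was 62.4% among sKO libraries and 18.8% among WT libraries. Its log2 fold change was 0.57 (SE 0.44, 95% interval -0.47 to 1.61, edgeR adjusted p = 0.628). Acta2 and Actg2 encode nearly the same protein, and the authors' treatment of reads matching both is not given, so the small Actg2 count is uncertain. Counts of Actg2 per 100 counts of Acta2 were 2.82, 2.65 and 3.24 in WT and 4.66, 3.14 and 2.10 in sKO.

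The regulators of the thin filament came next. Tpm1 and Tpm2 encode tropomyosins, the coiled coils that lie along actin. Tpm1 stood at 185, 189.7 and 226 CPM in WT and at 279, 254 and 199 CPM in sKO. The log2 fold change of Tpm1 was 0.29 (SE 0.13, 95% interval -0.0034 to 0.57, edgeR adjusted p = 0.376), the smallest adjusted p of the 10. sKO library 3 again lay inside the WT range. Tpm2 stood at 57.5, 70.9 and 69.6 CPM in WT and at 106, 77.8 and 59.4 CPM in sKO. Counts of Tpm2 per 100 of Tpm1 were 33.1 ± 3.71 in WT and 32.8 ± 4.46 in sKO (SD, n = 3 each), a difference well inside the spread.

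Cnn1, calponin, damps the myosin ATPase on actin and marks mature smooth muscle. Its WT levels were 15.1, 19.1 and 16.5 CPM. Its sKO levels were 35.2, 17.8 and 17.5 CPM, so that sKO library 1 stood apart and the other 2 lay within the WT range. The log2 fold change of 0.47 (SE 0.26, 95% interval -0.10 to 1.05, edgeR adjusted p = 0.470) fell to 0.04 without sKO library 1. Smtn, smoothelin, an actin-binding protein of contractile smooth muscle, showed the smallest estimate of the 10, at 0.15 (SE 0.15, edgeR adjusted p = 0.707). Smtn had 35.2, 49.1 and 50.2 CPM in WT against 55.1, 49.9 and 44.1 CPM in sKO, where WT library 1 was the low one.

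Des, desmin, forms the intermediate filaments that tie contractile units together. It stood at 16.1, 17.8 and 20.0 CPM in WT and at 26.6, 19.4 and 17.5 CPM in sKO, with a log2 fold change of 0.24 (SE 0.17, edgeR adjusted p = 0.588). Only sKO library 1 lay above the WT range.

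Tagln, transgelin (SM22 alpha), is elsewhere a highly abundant actin-binding protein of smooth muscle. Here it had only 6, 10 and 7 counts in WT libraries 1 to 3 and 18, 11 and 8 counts in sKO libraries 1 to 3, or 0.336 to 1.08 CPM. Per kilobase of exon its WT level was 0.228 ± 0.0641 CPM (SD, n = 3), while Des, the next gene above it, had a level 21.0-fold higher. In GENCODE (GRCm38), 62.4% of the exonic bases of Tagln are shared with Gm48529 and 5.43% with Pcsk7, both on the opposite strand. Pcsk7, a convertase of the secretory pathway, had 68.8 to 83.4 CPM. Neither the authors' strand setting nor their handling of overlapping genes is given, and the part of this overlap in the low Tagln count was not tested. The log2 fold change of Tagln, 0.67 (SE 0.48, 95% interval -0.38 to 1.72, edgeR adjusted p = 0.579), rests on these few counts, and without sKO library 1 the gene no longer passed the filter.

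Smtn shares 16.3% of its exonic bases with the opposite-strand Gm11946. Des and Mylk share under 6% of theirs with any single other gene, and no shared exonic base was found for the others.

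Levels can be compared between genes only per length, for which CPM was divided by the exonic length of each gene in GENCODE (GRCm38, all isoforms joined). On that scale Acta2 led in WT at 173 ± 21.5 CPM per kilobase (SD, n = 3). Myh11 followed at 39.0 ± 5.28, Tpm1 at 30.9 ± 3.43, Mylk at 26.6 ± 1.59 and Tpm2 at 22.7 ± 2.55 CPM per kilobase. Lower levels were found for Smtn (10.2 ± 1.92), Actg2 (7.11 ± 1.33), Cnn1 (6.19 ± 0.732) and Des (4.79 ± 0.525), with Tagln last. WT ranges of neighbours overlapped between Myh11 and Tpm1, between Smtn and Actg2, and between Actg2 and Cnn1, and these pairs cannot be ordered. Genes with many isoforms, such as Mylk and Tpm1, are understated by a joined length.

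The 10 genes varied together from library to library. Their summed level was 1190, 1349 and 1463 CPM in WT libraries 1 to 3 and 1947, 1560 and 1296 CPM in sKO libraries 1 to 3. sKO library 3 was thus below 2 of the 3 WT libraries. Acta2, Myh11, Mylk and Tpm1 made up 87.1% to 88.8% of these counts in every library. Across the 45 pairs of genes, the Pearson correlation of log2(CPM + 1) over the 6 libraries had a median of 0.89, from 0.66 for Cnn1 with Smtn to 0.99 for Acta2 with Tpm2. All pairs share the same 6 libraries and scaling factors, and the correlation between pairs of other genes was not computed for comparison.

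sKO library 1 was the highest of the 6 for all 10 genes, against 20.5% of all tested genes. WT library 1 was the lowest for 8 of the 10, against 25.2% of all tested genes, the exceptions being Mylk and Actg2. Relative to the WT mean, the 10 genes in sKO library 1 lay between 0.30 (Smtn) and 1.31 (Actg2) higher on the log2 scale. The median deviations were 0.61, 0.20 and -0.03 in sKO libraries 1 to 3 and -0.21, 0.05 and 0.13 in WT libraries 1 to 3. Without sKO library 1 the median log2 fold change was 0.05, and without both libraries numbered 1 it was -0.03, with 6 of the 9 genes still testable having lower estimates in sKO. The libraries left out were those at the extremes given above, so a fall of the estimates follows from that choice.

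The excess in sKO library 1 was uneven among the genes. Actg2 and Cnn1 reached 1.88 and 1.84 times the highest of the other 5 libraries, and ranked 23 and 24 of the 12715 genes averaging 5 CPM or more. Tpm2, Myh11, Des and Acta2 reached 1.36, 1.33, 1.33 and 1.26 times. Mylk, Smtn and Tpm1 reached only 1.15, 1.10 and 1.09 times. A value at least 1.2 times the highest other library was thus seen in 6 of the 9 genes above 5 CPM, against 2.28% of all genes compared. Genes outside the 10 that were noticed after their values were seen included Pgm5, an adhesion protein of smooth muscle, at 10.6 CPM in sKO library 1 and at most 3.61 CPM elsewhere. Acta1, the skeletal muscle actin, had 5.47 CPM there and at most 0.275 CPM elsewhere. The epididymal transcripts of this library are given above, and their part in the excess was not tested. The summed level of 12 skeletal muscle markers was 54.1 CPM in sKO library 1 and 43.8 to 55.6 CPM elsewhere. Any part of skeletal muscle in the excess was not tested either.

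CPM are shares of a library, and the share of spermatocyte transcripts differed between the groups as given above, so the 10 genes were also set against Sertoli cells, the other somatic cells of the tubule. All 14 Sertoli markers, led by Clu, Aard and Cldn11, had higher estimates in sKO, with a median log2 fold change of 0.24 and 0 called. The median was 0.22 without sKO library 1. At an unadjusted edgeR p under 0.05, 6 of the 14 were higher, against 5.06% of all tested genes. For 6 of the 14 every sKO library lay above every WT library, against 9.58%. Their summed level was 5833 to 6627 CPM in WT and 7088 to 8354 CPM in sKO, so this scale itself differed between the groups. Counts of the 10 contractile genes per 100 counts of Sertoli markers were 20.4, 20.4 and 22.1 in WT libraries 1 to 3. They were 25.4, 18.7 and 18.3 in sKO libraries 1 to 3, so on this scale sKO library 1 was above and sKO libraries 2 and 3 were below every WT library. The group means were 20.9 ± 0.970 and 20.8 ± 4.02 (SD, n = 3 each), a difference far smaller than the spread. With all libraries scaled on these markers the median log2 fold change of the 10 genes was 0.02, that of all tested genes moved to -0.24, and Des, Mylk and Smtn changed to lower estimates in sKO.

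**Figure D2:**
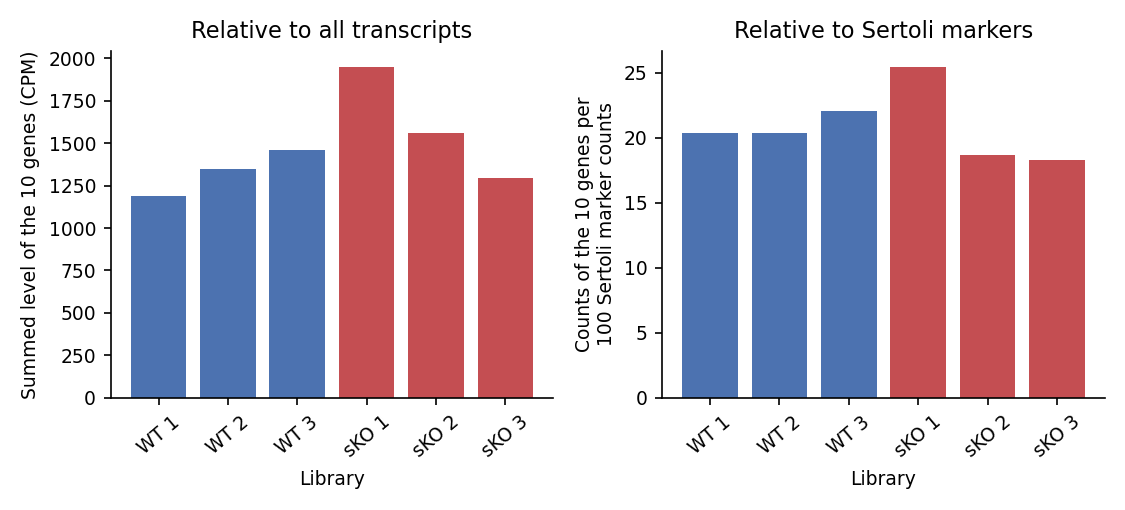
Summed level of the 10 contractile genes per library, in CPM on the left and as counts per 100 counts of 14 Sertoli markers on the right, with WT in blue and sKO in red. On the left sKO libraries 1 and 2 exceed every WT library, at 1947 and 1560 CPM, while on the right only sKO library 1 does, at 25.4.

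**Figure D3:**
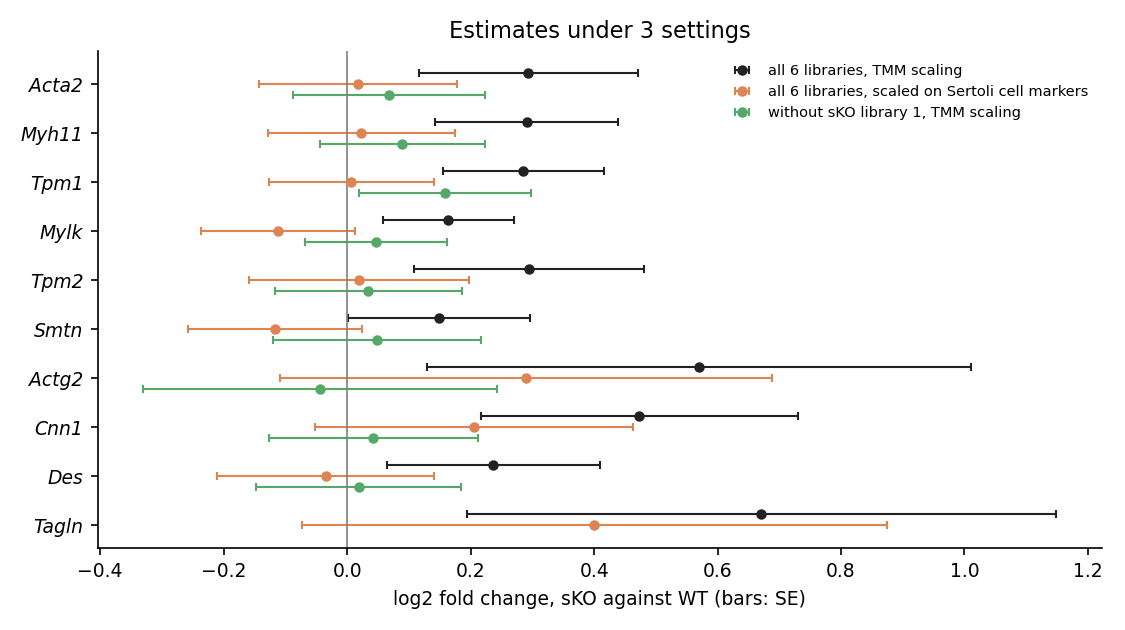
Log2 fold change of each contractile gene, sKO against WT, as fitted on all libraries (black), with libraries scaled on Sertoli markers (orange) and without sKO library 1 (green), with bars of 1 standard error. Estimates that lie between 0.15 and 0.67 in black are lower in orange and green. Des, Mylk and Smtn fall below 0 in orange, as does Actg2 in green. Tagln has no green point because it was not tested there.

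Other genes of the contraction pathway were read from lists of companions. Of 19 genes for myosin light chains, their kinase and phosphatase arm and calmodulins, edgeR called 0, 12 had higher and 7 lower estimates, and the median log2 fold change was 0.03. Those with the smallest p included Calm3 and Calm2, both of which encode calmodulin. Their log2 fold changes were -0.40 and -0.42, with edgeR adjusted p of 0.0643 and 0.213. Their sKO libraries lay below all WT libraries, a pattern whose share among all tested genes was not counted. Calm3 was called lower by DESeq2 (adjusted p = 0.00310), and by edgeR without the low-count filter (0.00669), with Sertoli scaling (0.0275) and without WT library 3 (0.0467). Calm2 was called only without the filter among the alternatives run (edgeR adjusted p = 0.00434), and its log2 fold change was -0.21 without WT library 1, the highest of the 6. Without the filter the SE was 0.108 for both Calm3 and Calm2, against 0.0927 and 0.144 in the main fit. The p-values of the unfiltered fit thus hardly reflect the library-to-library spread of each gene. Cald1, caldesmon, which holds actin away from myosin, averaged 105 ± 6.40 CPM over the WT and 123 ± 11.4 CPM over the sKO libraries (SD, n = 3 each), with a log2 fold change of 0.23 (edgeR adjusted p = 0.334) that was 0.14 without sKO library 1. The regulatory light chain Myl12b had a log2 fold change of 0.26 (edgeR adjusted p = 0.284). Myl9, the light chain of smooth muscle myosin, was chosen after its values were seen and stood at 172, 225 and 218 CPM in WT and 272, 237 and 197 CPM in sKO, the same order of libraries within sKO as for Acta2.

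Of 25 partners of the filaments, 23 were tested, edgeR called 0, and all 23 tested had higher estimates, with a median of 0.20. With libraries left out singly that median ranged from 0.11 without sKO library 1 to 0.25 without sKO library 3. The 4 with the smallest p were Cnn3, Tpm4, Vcl and Tagln2. Without the low-count filter edgeR called Cnn3, Tpm4 and Pgm5 higher (adjusted p = 0.00433, 0.00789 and 0.0200), with the limit of that fit given above. Cnn3, the calponin of non-muscle cells, had 138, 164 and 186 CPM in WT against 239, 230 and 189.6 CPM in sKO, without overlap (log2 fold change 0.44, SE 0.13, edgeR adjusted p = 0.136). Tpm4, a tropomyosin of non-muscle cells, had a log2 fold change of 0.43 (SE 0.13, edgeR adjusted p = 0.169). Vcl, vinculin, which links actin to adhesions, averaged 317 ± 14.3 CPM over the WT and 376 ± 4.94 CPM over the sKO libraries (SD, n = 3 each), with an edgeR adjusted p of 0.210. Tagln2, the broadly expressed transgelin, had a log2 fold change of 0.43 (SE 0.16, edgeR adjusted p = 0.259), and of 0.21 without sKO library 1. Of the other 4 conventional actins, Actb had a log2 fold change of 0.22 (edgeR adjusted p = 0.519), and Acta1 and Actc1 did not pass the filter.

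Among 9 transcription regulators of the smooth muscle programme edgeR called 0, with a median of 0.13 that ranged from 0.0494 without WT library 1 to 0.16 without WT library 2. Tead1 and Mef2c, both of which act on muscle genes, had the smallest p (edgeR adjusted p = 0.386 and 0.387) at log2 fold changes of 0.20 and 0.24. Myocd, the coactivator myocardin, stood at 11.1, 12.1 and 12.7 CPM in WT and 15.02, 12.4 and 10.1 CPM in sKO, with overlap on both sides. Srf stood at 89.3, 112 and 89.5 CPM in WT and 106, 105 and 101 CPM in sKO. Both were chosen after their values were seen.

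Of 22 receptors, channels and relaxing enzymes, 19 were tested and edgeR called 0, with 14 higher and 5 lower estimates and a median of 0.23. That median was 0.0774 without sKO library 1 and 0.0888 without WT library 1. Oxtr, the oxytocin receptor that drives tubule contraction, stood at 10.04, 13.9 and 18.2 CPM in WT and 25.5, 19.7 and 20.8 CPM in sKO, without overlap. Its log2 fold change of 0.65 (SE 0.20) did not pass the test (edgeR adjusted p = 0.169), except without the low-count filter among the alternatives run (adjusted p = 0.00421). The limit of the unfiltered fit is given above. Gucy1b1, a subunit of the nitric oxide receptor, did not overlap either, averaging 12.5 ± 1.46 CPM over the WT and 16.9 ± 2.14 CPM over the sKO libraries (SD, n = 3 each), with an edgeR adjusted p of 0.247. Ednra, an endothelin receptor of contractile cells chosen after its values were seen, had a log2 fold change of 0.29 (edgeR adjusted p = 0.532).

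Hedgehog signalling and the tubule wall were checked in the same way. All 8 hedgehog genes had higher estimates and 0 were called, with a median of 0.18, and Dhh, the Sertoli cell ligand, averaged 171 ± 14.1 CPM over the WT and 197 ± 7.66 CPM over the sKO libraries (SD, n = 3 each), with an edgeR adjusted p of 0.354. All 14 genes of the tubule wall matrix had higher estimates and 0 were called, with a median of 0.19. In that list Lamc1, the laminin gamma chain of basement membranes, had the smallest p (log2 fold change 0.24, edgeR adjusted p = 0.305). The matrix list was highest in sKO library 1 for 12 of 14 genes and lowest in WT library 1 for 10 of 14, and its median was 0.0860 without sKO library 1 and 0.0841 without WT library 1.

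**Figure D4:**
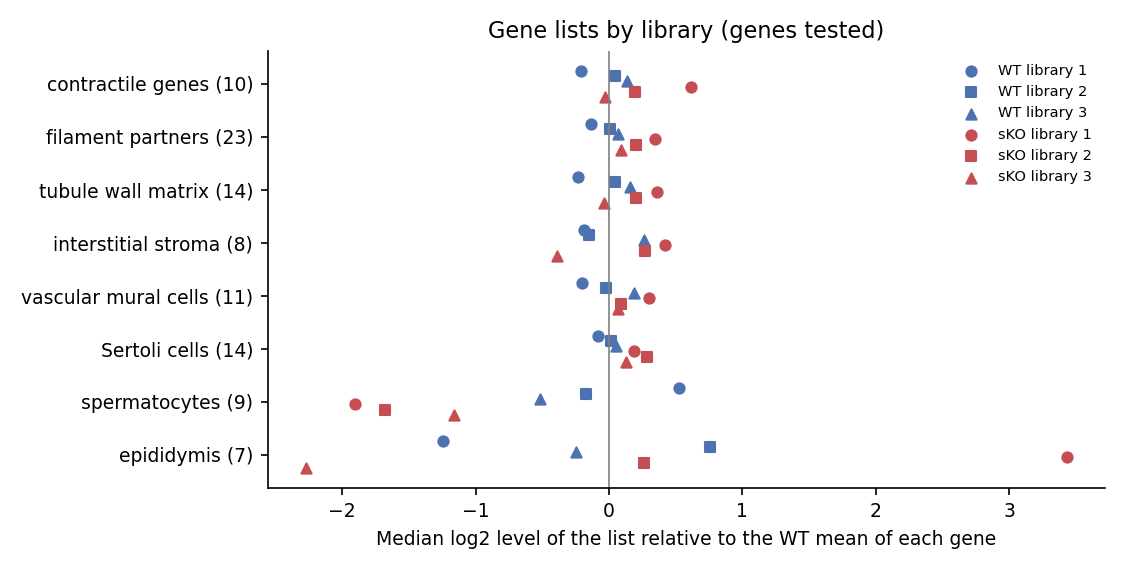
Median log2 level of each gene list in each library relative to the WT mean of every gene, with the number of genes tested in brackets, WT in blue and sKO in red. The contractile genes range from -0.21 in WT library 1 to 0.61 in sKO library 1, the spermatocyte list separates the groups, and the epididymis list reaches 3.43 in sKO library 1.

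Markers of vascular and stromal cells were summed for each library, and their part in the contractile gene levels was not tested. Of 11 vascular smooth muscle and pericyte markers edgeR called 0, with 9 higher and 2 lower estimates that ran from -0.54 to 0.49. Their median was 0.16, and with libraries left out singly it ranged from 0.0581 without sKO library 1 to 0.26 without WT library 3. The summed level of these 11 was 220 to 286 CPM in WT and 268 to 321 CPM in sKO. Mcam, Rgs5 and Heyl were the most abundant, and none of the 11 was at 0 in a WT library. Heyl, a Notch target of vascular smooth muscle, had the highest estimate of the 11, 0.49 (SE 0.19, edgeR adjusted p = 0.265). Its level was highest in sKO library 1, at 33.4 CPM against at most 25.3 CPM elsewhere. The estimate for Heyl was 0.26 without that library, and edgeR called it without the low-count filter (adjusted p = 0.0460), a fit whose limit is given above. Interstitial stroma markers (8 genes, 0 called, median 0.14, and -0.0530 without sKO library 1) summed to 1775, 2079 and 2493 CPM in WT and to 2870, 2340 and 1595 CPM in sKO, with sKO library 1 highest and sKO library 3 lowest. Col3a1, Dcn and Pdgfra led that list. edgeR called none of 10 endothelial markers led by Cdh5, Kdr and Egfl7 (median 0.19, and 0.0310 without sKO library 1). It called none of 9 Leydig cell markers led by Nr5a1, Hsd3b1 and Cyp11a1 (median 0.24, and 0.14 without sKO library 1) or of 9 macrophage markers led by Lyz2, Mrc1 and Csf1r (median 0.37, and 0.23 without sKO library 1). Of 8 adipose markers led by Lipe, Plin1 and Fabp4, 6 were tested and 0 called (median -0.13, and -0.59 without sKO library 1), and 0 of 5 red blood cell markers led by Hbb-bs, Hba-a1 and Hbb-bt were called (median -0.29, and -0.56 without sKO library 1). Of 12 skeletal muscle markers led by Actn3, Myh1 and Myh8, 8 were tested and 0 called (median 0.0636, and 0.20 without sKO library 1). None of 7 spermatogonial markers led by Uchl1, Dmrt1 and Stra8 was called (median 0.17, and 0.16 without sKO library 1). Of 16 epididymis markers led by Crisp1, Cdh16 and Pax2, only 7 were tested and 0 called (median 1.93, and -0.15 without sKO library 1). The adipose sum was 62.2 CPM in sKO library 1, 69.5 CPM in WT library 2 and 34.7 to 46.5 CPM in the other libraries. The red blood cell and skeletal muscle sums were highest in a WT library.

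The genes outside the 10 whose profile over the 6 libraries was most like their mean log2(CPM + 1) were taken from 12035 genes averaging 5 CPM or more and carrying no predicted name. They were Tmem119 (Pearson r = 0.997), Vcan (0.993), Prr33, Glb1l2, Fat4, Ly6e, Hpgd, Acat1, Aco1 and Ptgfrn, the last at 0.986. Vcan, the matrix proteoglycan versican, stood at 4.37, 6.36 and 7.09 CPM in WT and 14.7, 7.69 and 4.51 CPM in sKO. None of these 10 came from the lists above, and 0 were called (edgeR adjusted p from 0.414 to 0.669). The likeness is a description over 6 libraries, in which sKO library 1 weighs most.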

How the data were processed

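The authors deposited a table of unnormalized read counts by gene symbol. The submitters' processing notes list HISAT2, featureCounts and Trim Galore, and the build mm39. Versions, annotation, strand setting and the handling of overlapping or multi-mapping reads are not given there. Columns named con and scKO were read as WT and sKO and matched by number.

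The test was that of edgeR 4.0.16 (R 4.3.3, filterByExpr, TMM, robust quasi-likelihood F test without covariates, Benjamini-Hochberg adjustment over 18860 genes, called under 0.05). CPM uses TMM-scaled totals, so 3 counts correspond to 0.165 to 0.187 CPM, a limit that covers counting error only. SE was derived from F, and 95% intervals use its degrees of freedom. Within groups, chi-square over its degrees of freedom was 4.45 to 20.2 between libraries, above counting noise. The script was checked on simulated counts. Alternatives used DESeq2 1.42.0, limma-voom 3.58.1, other scalings, no filter, a replicate block and left-out libraries.

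The 10 genes, the 19 companion lists and the tests were chosen with earlier results of these data known. Named from each list were called genes, otherwise up to 4 with the smallest p, and for other cell types the 3 most abundant, with exceptions marked. RefSeq and GENCODE are on GRCm38, not the authors' build, and served names, lengths, overlaps and promoters.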

Additional observations from a re-analysis of the deposited data

How the results depend on the processing

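The count of contractile genes called was 0 under each alternative run. Their median log2 fold change lay between 0.05 and 0.41 when libraries were left out singly, and it was 0.0186 with scaling on Sertoli markers and -0.027 without both libraries numbered 1. The counts of all genes called lower and higher were 623 and 1 with Sertoli scaling, 992 and 154 without the low-count filter, 721 and 56 with DESeq2, 0 and 0 with limma-voom (1598 and 932 at an unadjusted p under 0.05), 21 and 0 with the replicate block, 155 and 5 without both libraries numbered 1, and 0 to 624 and 0 to 31 with libraries left out singly. They were 624 and 31 without sKO library 3, 502 and 11 without WT library 3 and 101 and 2 without WT library 1. Leaving out WT library 2 gave 0 of either, with 1662 lower and 1102 higher genes under an unadjusted p of 0.05. The same was true of sKO library 1 (1410 lower, 431 higher) and of sKO library 2 (1221 lower, 503 higher), and in these 3 fits the Rif1 and spermatocyte calls were also lost, with log2 fold changes of -1.30, -1.13 and -1.17 for Rif1 and -3.36, -3.20 and -2.81 for Acr. limma-voom lost them too. The replicate block lost the 4 spermatocyte calls (adjusted p = 0.0604 for Acr to 0.315 for Ybx2). Ybx2 also lost its call with RLE factors (0.0506), without the filter (0.0769) and without WT library 1 (0.148). Without the filter, 5 of the 10 genes had higher estimates at an unadjusted p under 0.05, against 1404 of all 35085 genes. The smallest adjusted p of the 10 was then 0.0870. In that fit the SE was 0.109 for Acta2 and 0.108 for Mylk, against 0.178 and 0.106 in the main fit. Its p-values thus hardly reflect the spread of each gene. Without sKO library 3 there were 6, against 1024 of 19317 genes, with a smallest adjusted p of 0.0890. The number was 2 without WT library 3 (967 of 19436 genes) and 1 without sKO library 2 (503 of 19469 genes). It was 0 in every other fit. Equal numbers gave no sign of pairing the samples (deviations of WT and sKO libraries 1, 2 and 3 correlated at -0.38, 0.17 and -0.33, not every sample best with its own number). With 3 libraries per group and deviations taken from group means, the check cannot exclude pairing. With the replicate block the median of the 10 genes was 0.27. With Sertoli scaling the log2 fold change reversed to -0.0348 for Des, -0.11 for Mylk, -0.12 for Smtn, -0.0705 for Myl9, -0.0456 for Cald1, -0.0184 for Myl12b, -0.0288 for Vcl, -0.0463 for Actb, -0.0625 for Dhh, -0.0362 for Lamc1, -0.072 for Tead1, -0.0392 for Mef2c, -0.21 for Myocd and -0.16 for Srf. Without both libraries numbered 1 it reversed to -0.0253 for Acta2, -0.027 for Cnn1, -0.0489 for Des, -0.0504 for Tpm2, -0.16 for Actg2, -0.0944 for Smtn, -0.0402 for Myl9 and -0.16 for Myocd. For the 10 genes a fall follows from that choice, since sKO library 1 was highest for all and WT library 1 lowest for 8. With libraries left out singly the ranges were 0.0679 to 0.44 for Acta2, 0.0426 to 0.64 for Cnn1, 0.0191 to 0.32 for Des, 0.0344 to 0.44 for Tpm2, -0.0439 to 0.89 for Actg2, 0.000762 to 0.24 for Smtn, 0.064 to 0.28 for Myl9 and -0.11 to 0.16 for Myocd, the lowest of Actg2 and Myocd being without sKO library 1. The cause was not tested. Depth limits Tagln, with 6 to 18 counts per library, which was not tested without sKO library 1 or both libraries numbered 1.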
